A study of Sus scrofa with 13 samples.

Results

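The hatching of pig blastocysts produced by in vitro fertilisation (IVF) was read from 6 RNA sequencing libraries: 3 of IVF blastocysts and 3 of IVF hatched blastocysts. They were taken by the stage in their labels and are 6 of the 13 libraries of a study of Sus scrofa preimplantation embryos. The other libraries held IVF 4-cell embryos (3), blastocysts developed in vivo (2) and hatched blastocysts developed in vivo (2). The 4 in vivo blastocyst and hatched libraries entered the same fit and served as the comparison for the change in culture.

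All 6 libraries came from embryos that were fertilised in vitro, and each was made from the polyadenylated RNA of a pool of whole embryos. The breed, oocyte source, culture medium, embryo age in days, size of the pools, and whether pools of a group came from separate fertilisation rounds are not stated in the labels. All p-values rest on the spread among the libraries as deposited, some of which may be technical. Age at collection may go with the stage, so hatching and a longer time in culture cannot be told apart. In pools of whole embryos, fewer cells of a type and less RNA per cell cannot be told apart either.

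A blastocyst is a hollow embryo with an outer trophectoderm, an inner group of pluripotent cells and a layer of hypoblast that forms beneath them. Hatching is its escape from the zona pellucida, the glycoprotein coat of the egg, after which a pig embryo grows freely in the uterus before it attaches. Embryo cells make cholesterol from acetyl-CoA through mevalonate, farnesyl diphosphate, squalene and lanosterol. The enzymes of this path are transcribed under SREBP-2, which is held in the endoplasmic reticulum by INSIG proteins when sterols are abundant and is released when sterols are scarce.

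Library totals were 39273867, 38748120 and 36392910 counts for blastocysts and 35631851, 38649374 and 36233473 for hatched blastocysts. Pearson correlations of log2 CPM (counts scaled to a fixed library size) across genes were 0.934 to 0.946 within blastocysts, 0.948 to 0.957 within hatched blastocysts and 0.937 to 0.954 between the stages, so no library stood apart and the stages were about as alike as the replicates. Labelled stage and markers were compared as levels. The trophectoderm keratin KRT8 lay between 18386 and 33052 CPM in all 6 libraries and the pluripotency factor POU5F1 between 742 and 1367 CPM. SOX2, another pluripotency factor, had 0 to 2.58 CPM and was far below POU5F1 in every library. Summed CPM of marker lists for other cells were 3.11 to 9.79 for oviduct and uterine epithelium (10 genes), 13.4 to 15.9 for stroma and vessel (12 genes), 3.90 to 7.67 for blood and immune cells (11 genes) and 0 to 0.259 for sperm (10 genes).

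Few messages passed edgeR's test across hatching in culture, and all that did were members of a list of cholesterol genes. Of 15528 genes tested with edgeR's quasi-likelihood test, 7 fell (0.0451%) and 0 rose at an adjusted p under 0.05. Among the 7 were INSIG1, FDFT1, HMGCS1, MSMO1, FDPS and CYP51, and each of these 6 was 3.69-fold to 10.04-fold lower in hatched blastocysts. At an unadjusted p under 0.05, 594 genes differed (3.83%), 331 lower (2.13%) and 263 higher (1.69%). DESeq2 called 45 genes lower and 13 higher, and these 45 included all 7. Only 17 of the 45 were members of the cholesterol list, so most DESeq2 calls lay outside it. The 3 hatched libraries lay wholly below the 3 blastocyst libraries for 869 genes (5.60%) and wholly above them for 795 (5.12%), and 50.1% of all fitted changes were below 0.

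**Figure D1:**
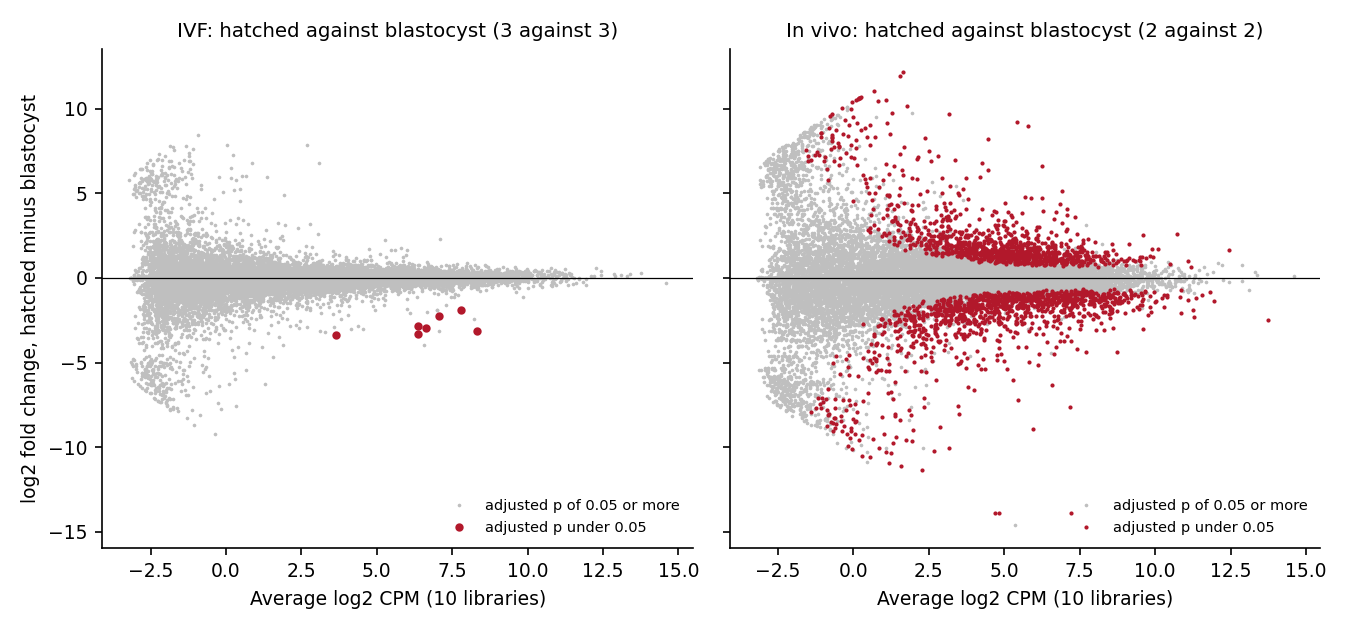
Log2 fold change (hatched minus blastocyst) against average log2 CPM over 10 libraries for 15528 genes, for IVF embryos (left, 3 against 3 libraries) and in vivo embryos (right, 2 against 2), with red points for an adjusted p under 0.05. The left panel holds 7 red points, all below 0, and the right panel holds 2228 on both sides of 0.

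The synthesis enzymes are taken in the order of the pathway. HMGCS1, which makes HMG-CoA for the mevalonate branch (chromosome 16, 27936225 to 27957261, Sscrofa11.1), had 227, 246 and 296 CPM in blastocyst libraries 1, 2 and 3 and 48.8, 49.96 and 66.3 CPM in hatched libraries 1, 2 and 3. Every blastocyst library was far above every hatched one, and within a stage the libraries lay close together. HMGCS1 fell by 2.22 ± 0.22 on the log2 scale (standard error; edgeR adjusted p = 0.00249).

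FDPS, which joins isoprene units into farnesyl diphosphate (chromosome 4, 94500140 to 94514820), had 396, 263 and 365 CPM in blastocysts and 78.8, 116 and 82.5 CPM in hatched blastocysts. The groups did not overlap, with blastocyst library 2 the lowest of its stage and hatched library 2 the highest of its own. FDPS fell by 1.88 ± 0.23 (edgeR adjusted p = 0.00999). Its call was lost without blastocyst library 1, blastocyst library 3, hatched library 1 or hatched library 3, with changes from -2.08 to -1.76 and an adjusted p of up to 0.114 over all single omissions.

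FDFT1, squalene synthase and the first enzyme committed to sterols (chromosome 14, 14976259 to 15010701), had 138, 69.5 and 125 CPM in blastocysts and 7.93, 14.8 and 10.4 CPM in hatched blastocysts. Blastocyst library 2 was again the lowest of its stage and still well above any hatched library. FDFT1 fell by 3.33 ± 0.32 (edgeR adjusted p = 0.00237), a 10.04-fold decrease.

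CYP51, the lanosterol demethylase (chromosome 9, 72057506 to 72079587), had 229, 151 and 208 CPM in blastocysts and 12.3, 42.1 and 26.5 CPM in hatched blastocysts. The hatched libraries were all lower but spread more than those of HMGCS1. CYP51 fell by 2.86 ± 0.39 (edgeR adjusted p = 0.0284). The call was lost without blastocyst library 1, blastocyst library 3 or hatched library 3, with changes from -3.34 to -2.51 and an adjusted p of up to 0.200, and also when the 6 IVF libraries were fitted alone.

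MSMO1, which removes methyl groups after that step (chromosome 8, 43726834 to 43745784), had 631, 324 and 628 CPM in blastocysts and 42.8, 75.3 and 64.3 CPM in hatched blastocysts. Blastocyst library 2 was lowest of its stage, as it was for FDPS, FDFT1 and CYP51, and all hatched libraries were well below it. MSMO1 fell by 3.12 ± 0.32 (edgeR adjusted p = 0.00292).

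INSIG1 encodes the protein that retains the SREBP-2 complex in the endoplasmic reticulum and is itself a target of SREBP-2 (chromosome 18, 2885494 to 2898758). It had 214, 137 and 151 CPM in blastocysts and 14.8, 28.4 and 22.7 CPM in hatched blastocysts, with no overlap between the stages. INSIG1 fell by 2.93 ± 0.28 (edgeR adjusted p = 0.00237).

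The calls of INSIG1, FDFT1, HMGCS1 and MSMO1 were kept without each of the 10 libraries in turn, with an adjusted p of at most 0.0321. No gene was called when the 13 libraries of the series were fitted together in edgeR, where 430 genes had an unadjusted p under 0.05.

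**Figure D2:**
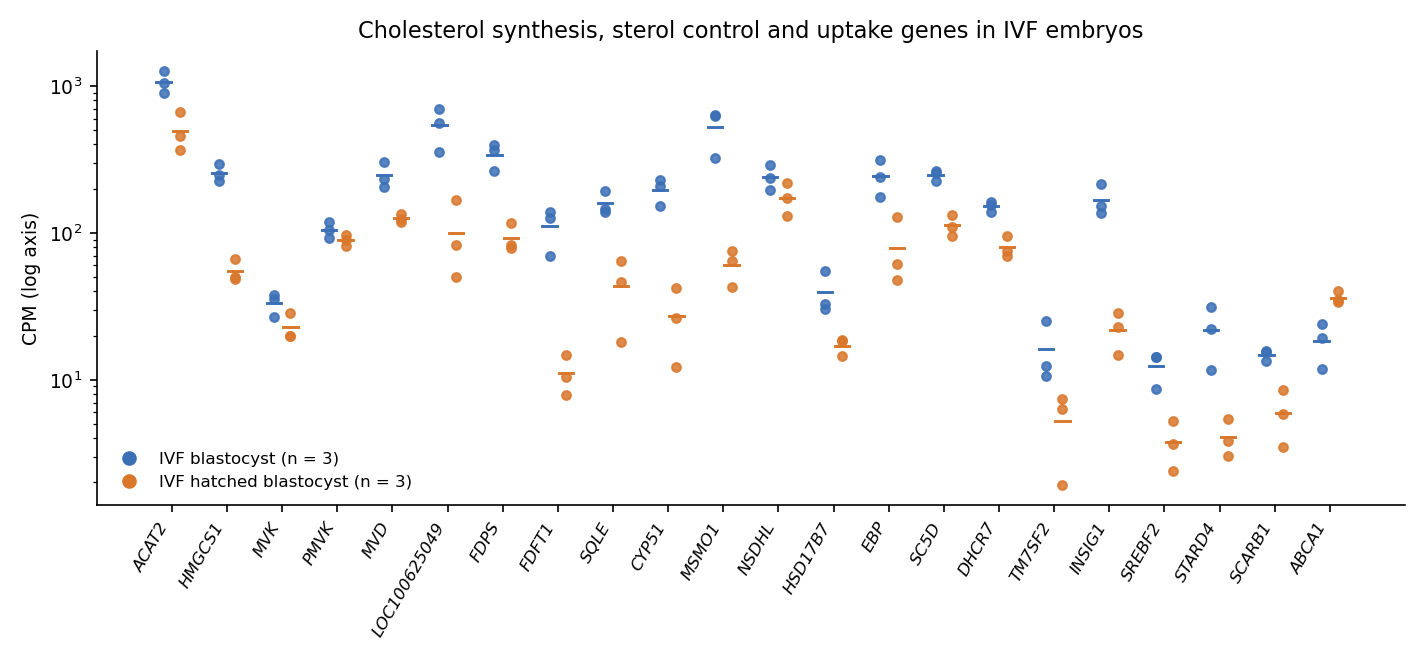
CPM on a log axis of the sterol genes named in the text in IVF blastocysts (blue) and IVF hatched blastocysts (orange), 1 point for each library and a line for each mean (n = 3 each), ordered from synthesis through control to uptake and efflux. Blue points lie above orange ones for most genes, and ABCA1 at the right is the reverse.

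The whole path was described with a list of 33 genes of cholesterol synthesis, control and transport, of which 32 were in the table and 30 were tested. The remaining 2 had too few counts. Of the 30 tested members, 7 fell and 0 rose (0.0451% and 0% of all genes). A fitted change below 0 was found for 26 (against 50.1% of all genes), and the median log2 fold change was -1.26 (-0.00 over all genes). The stages did not overlap for 21 members lower and 1 higher, against 5.60% and 5.12% of all genes. At an unadjusted p under 0.05, 21 members were lower (2.13% of all genes). Summed over the 32 genes, the list had 8008, 6555 and 6752 CPM in blastocysts and 3573, 4054 and 3648 CPM in hatched blastocysts. Every blastocyst sum was above every hatched sum. The list and its members were chosen with earlier results of these data known, so its count is no independent evidence of direction.

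Other enzymes of the path that are named here did not pass the test one by one. ACAT2, which joins acetyl-CoA units at the entry of the path, had 1256, 894 and 1046 CPM in blastocysts and 454, 661 and 368 CPM in hatched blastocysts (-1.11 ± 0.24, edgeR adjusted p = 0.514). All its blastocyst libraries were above all hatched ones.

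MVD, which forms isopentenyl diphosphate, had a log2 fold change of -0.97 ± 0.20. LOC100625049, named in the gene table as isopentenyl-diphosphate delta-isomerase and kept beside the list rather than in it, had 701, 358 and 559 CPM against 49.9, 167 and 82.8 CPM (-2.43 ± 0.40, edgeR adjusted p = 0.0964). Its stages did not overlap. The mevalonate kinases MVK (-0.55 ± 0.23) and PMVK (-0.24 ± 0.25) had the smallest values of the early path, and their stages overlapped.

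After squalene, SQLE, the squalene epoxidase, had 193, 145 and 140 CPM in blastocysts and 18.2, 46.6 and 64.8 CPM in hatched blastocysts (-1.88 ± 0.41). SC5D, a desaturase near the end of the path, had 266, 227 and 255 CPM against 95.7, 110 and 133 CPM (-1.14 ± 0.19, edgeR adjusted p = 0.0964). Both were lower in every hatched library, and SC5D had among the tightest replicates of the list.

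The remaining late enzymes had fitted changes of -1.62 ± 0.59 (TM7SF2), -1.61 ± 0.36 (EBP), -1.20 ± 0.28 (HSD17B7) and -0.92 ± 0.21 (DHCR7), with stages that did not overlap. NSDHL, which works on the same sterol intermediates as MSMO1, had -0.47 ± 0.25 and overlapped. None of these 5 passed the adjusted threshold.

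Among the regulators, SREBF2, the gene of SREBP-2, had 14.2, 14.2 and 8.71 CPM in blastocysts and 2.39, 3.65 and 5.28 CPM in hatched blastocysts (-1.71 ± 0.40, edgeR adjusted p = 0.584). SREBF1, which encodes the related factor of fatty acid synthesis, had 15.5, 31.5 and 9.17 CPM against 24.4, 9.39 and 17.4 CPM (-0.13 ± 0.51). The SREBF2 libraries were apart and those of SREBF1 overlapped. SCAP, the escort protein of SREBP (-0.27 ± 0.41), and INSIG2, the second retention protein (0.07 ± 0.22), also overlapped. Another entry of the symbol INSIG2 had 0 to 4 counts in the IVF libraries and was not tested.

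Of the transport genes, STARD4, which carries cholesterol through the cytosol, had 31.2, 11.7 and 22.3 CPM in blastocysts and 5.43, 3.81 and 3.03 CPM in hatched blastocysts (-2.41 ± 0.40, edgeR adjusted p = 0.0964). SCARB1, the receptor for high-density lipoprotein, had 15.4, 13.3 and 15.7 CPM against 8.55, 5.80 and 3.46 CPM (-1.32 ± 0.42). ABCA1, which exports cholesterol, differed in direction, with 11.9, 24.1 and 19.2 CPM against 40.1, 33.6 and 35.0 CPM (0.98 ± 0.29, edgeR adjusted p = 0.990). The stages did not overlap for any of the 3, and ABCA1 was the 1 list member higher in every hatched library.

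The lysosomal cholesterol carrier NPC2 had 2846, 2772 and 2160 CPM in blastocysts and 1951, 1930 and 1932 CPM in hatched blastocysts (-0.42 ± 0.25), a small difference without overlap. Compared per gene length, as FPKM, ACAT2 was the most abundant of the synthesis messages named here in both stages, with 537 to 762 FPKM in blastocysts and 226 to 374 FPKM in hatched blastocysts. FDFT1 and SQLE had overlapping FPKM in blastocysts (35.8 to 74.6 and 49.7 to 68.3). In hatched blastocysts FDFT1 had 3.52 to 7.19 FPKM and SQLE 6.55 to 23.3 FPKM, so that those ranges still met.

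The same stages in vivo gave a different breadth of change. The labels give no embryo age or collection batch for either origin, so origin cannot be told apart from a difference in these. The fitted changes also hold estimation error, which differs between 3 against 3 libraries in culture and 2 against 2 in vivo. In the same fit 1080 genes rose (6.96%) and 1148 fell (7.39%) from in vivo blastocysts to in vivo hatched blastocysts. Among the 4511 genes whose average log2 CPM exceeded 5, the SD of the log2 fold changes across genes was 0.30 in culture and 1.04 in vivo, and 34 genes (0.754%) against 974 (21.6%) moved more than 2-fold. Across those genes the changes in culture and in vivo had a Pearson correlation of 0.202, and of 0.035 across all tested genes, as a description over genes that are not independent replicates. Of the 2228 genes called in vivo, 5 were called in culture. The IVF stages did not overlap in the in vivo direction for 224 of the 2228 and in the opposite direction for 100, against 10.7% of all genes apart in either direction. The difference between origins was itself tested, and the change in culture was above that in vivo for 433 genes (2.79%) and below it for 299 (1.93%).

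Of the 7 genes that fell in culture, 5 also fell in vivo. INSIG1 changed by -2.93 in culture and -2.84 in vivo, a difference of -0.08 ± 0.41. MSMO1 changed by -3.12 and -3.05, a difference of -0.06 ± 0.47. FDFT1 changed by -3.33 and -2.83, FDPS by -1.88 and -1.52, and HMGCS1 by -2.22 and -1.14, each called in both origins. None of these 5 differences passed the test, which does not show that the origins act alike. The largest of the 5 was that of HMGCS1, -1.08 ± 0.34 (edgeR adjusted p = 0.0894). CYP51, called only in culture, changed by -2.86 in culture and -1.18 in vivo, a difference of -1.68 ± 0.58 (edgeR adjusted p = 0.118). The list had a median of -0.95 in vivo, with 12 members called lower and 2 called higher (7.39% and 6.96% of all genes).

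**Figure D3:**
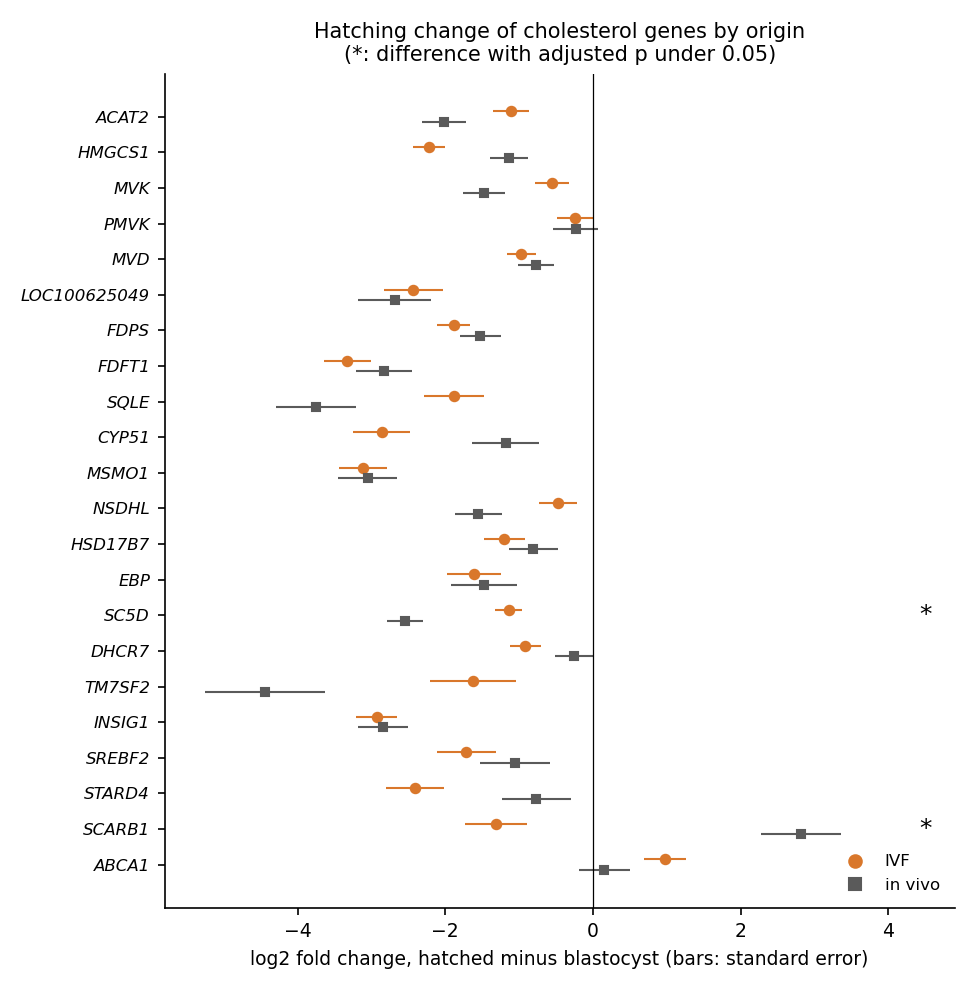
Log2 fold change from blastocyst to hatched blastocyst of the same sterol genes in IVF embryos (orange circles, 3 against 3 libraries) and in vivo embryos (grey squares, 2 against 2), with bars for 1 standard error. Stars mark SCARB1 and SC5D, whose difference between origins had an adjusted p under 0.05.

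Other members of the list differed between origins. SCARB1 had 5.17 and 7.62 CPM in in vivo blastocysts and 22.7 and 67.6 CPM in in vivo hatched ones, a difference of -4.14 ± 0.68 (edgeR adjusted p = 0.00952). The call was kept without each of the 10 libraries in turn. SC5D fell further in vivo (-2.54) than its value in culture, a difference of 1.403 ± 0.30 (edgeR adjusted p = 0.0249), whose call was lost without 7 of the 10 libraries (in vivo blastocyst 1, in vivo hatched 2, IVF blastocyst 1, 2 and 3, IVF hatched 2 and 3), with an adjusted p of up to 0.0939.

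Genes of fatty acid metabolism, some of which share control with sterol genes, were read from a list. Of 26 tested members of a list of fatty acid synthesis, desaturation and storage, 0 passed the test, 17 were below 0 (50.1% of all genes), and the stages were apart for 5 lower and 1 higher (5.60% and 5.12%). FADS1, a desaturase of long polyunsaturated fatty acids, had 296, 305 and 205 CPM in blastocysts and 167, 120 and 153 CPM in hatched blastocysts (-0.87 ± 0.22, edgeR adjusted p = 0.743). In vivo it rose from 46.4 and 50.8 to 130 and 92.5 CPM, and the difference between origins was -2.07 ± 0.35 (edgeR adjusted p = 0.0108).

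ACLY, which makes cytosolic acetyl-CoA from citrate, had -0.93 ± 0.36, ACACA, the carboxylase that commits it to fatty acids, -1.79 ± 0.61, and ACSS2, which makes it from acetate, -1.004 ± 0.36. The stages did not overlap for any of the 3. The difference of ACSS2 between origins was -2.82 ± 0.58 (edgeR adjusted p = 0.0231), and its call was lost without in vivo blastocyst library 1, in vivo hatched library 2, IVF hatched library 2 or IVF hatched library 3 (adjusted p of up to 0.0787). SLC16A1, a transporter of lactate and pyruvate, had 63.6, 26.1 and 72.0 CPM in blastocysts and 11.9, 6.69 and 21.2 CPM in hatched blastocysts (-2.03 ± 0.50, edgeR adjusted p = 0.720).

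**Figure D4:**
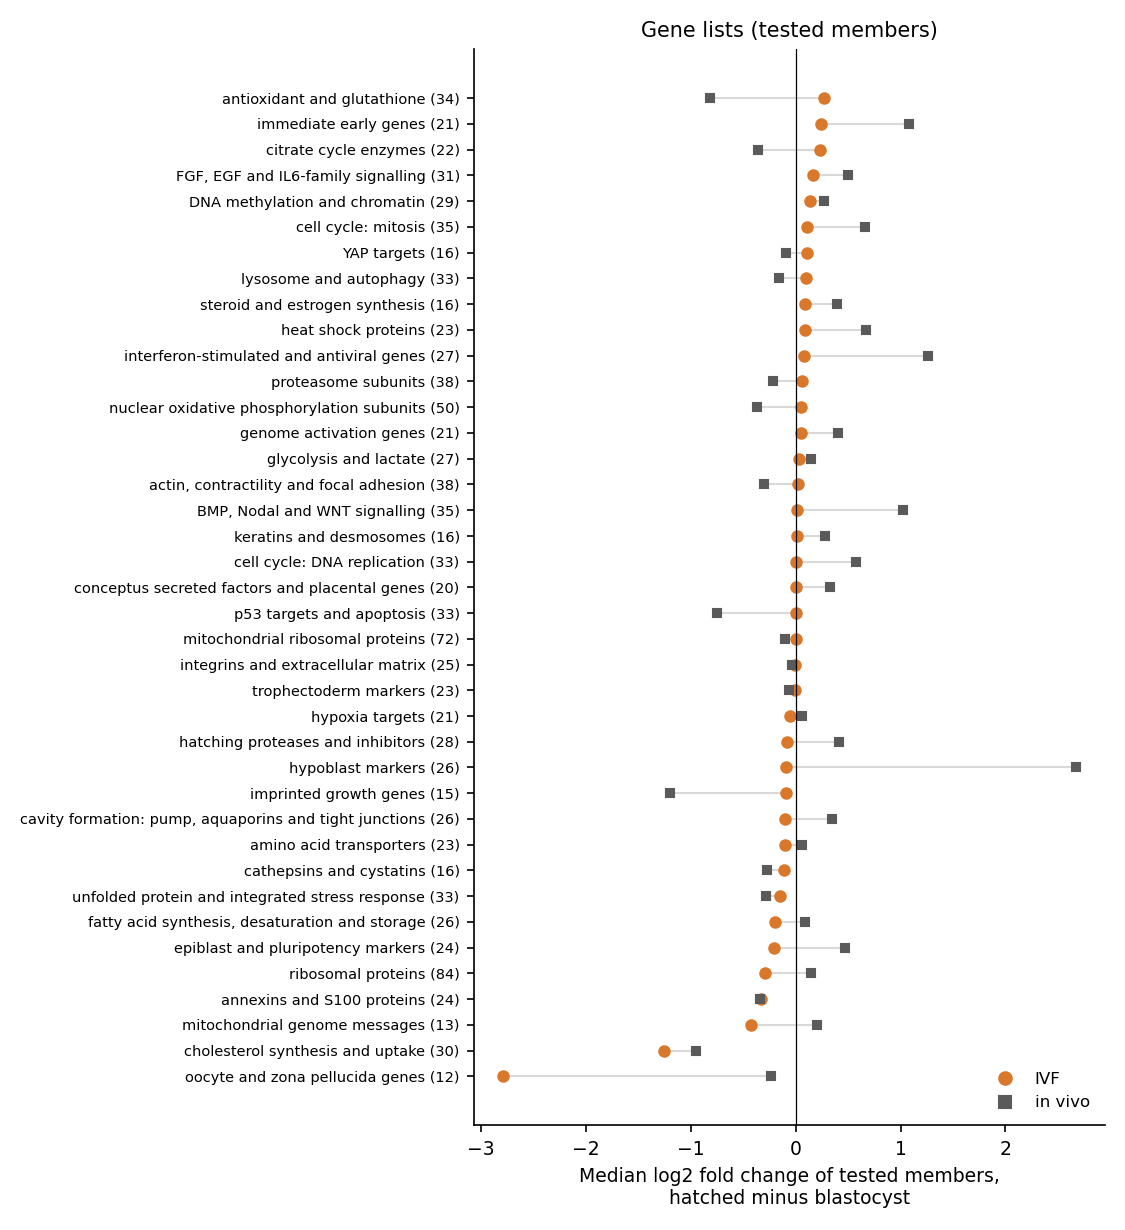
Median log2 fold change from blastocyst to hatched blastocyst of the tested members of each gene list (number of members in brackets), in IVF embryos (orange circles) and in vivo embryos (grey squares). Most orange circles lie close to 0; cholesterol synthesis and uptake is at -1.26, and the oocyte and zona pellucida list, at -2.79, rests on 12 tested members that mostly had few counts.

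Lineage markers of the embryo had no called gene in culture. Of 23 tested trophectoderm markers the median was -0.01, of 24 epiblast and pluripotency markers -0.20, and of 26 hypoblast markers -0.09, all with 0 calls. CDX2, a trophectoderm regulator, had 26.3, 26.8 and 12.2 CPM in blastocysts and 45.8, 27.1 and 28.4 CPM in hatched blastocysts (0.63 ± 0.36). The stages did not overlap, but the highest blastocyst library and the lowest hatched library were almost level. GATA2 (-0.07 ± 0.24), GATA3 (0.16 ± 0.28), TFAP2C (0.13 ± 0.29) and KRT8 (-0.27 ± 0.24), all of the trophectoderm, overlapped between the stages.

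DPPA5, a pluripotency gene, had 54.8, 34.5 and 40.2 CPM in blastocysts and 23.6, 24.9 and 18.5 CPM in hatched blastocysts (-0.95 ± 0.25, edgeR adjusted p = 0.882). In vivo it fell by 3.37, and the difference between origins was 2.42 ± 0.41 (edgeR adjusted p = 0.0102). KLF17, a factor of the early embryo, had 18.5, 24.2 and 10.9 CPM against 34.4, 28.4 and 25.5 CPM (0.72 ± 0.28).

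Some hypoblast genes differed between the origins. In vivo 13 of the 26 tested hypoblast markers rose and 1 fell (6.96% and 7.39% of all genes), with a median of 2.67, and for 6 the change in culture was below that in vivo (1.93% over all genes). COL4A2, a chain of basement membrane collagen, had 4.91, 4.12 and 5.47 CPM in IVF blastocysts and 2.19, 1.77 and 1.00 CPM in IVF hatched ones (-1.55 ± 0.39). It had 1.23 and 1.41 CPM in in vivo blastocysts and 18.6 and 38.96 CPM in in vivo hatched ones, and the difference was -5.99 ± 0.65 (edgeR adjusted p = 0.00153). The directions of the fitted values were opposite in culture and in vivo.

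BMP2, a growth factor made by hypoblast, had 5.24, 9.23 and 9.60 CPM in IVF blastocysts and 1.70, 0.663 and 0.704 CPM in IVF hatched ones (-2.97 ± 0.57, edgeR adjusted p = 0.272). In vivo it rose from 0.587 and 0.128 to 11.6 and 13.7 CPM, and the difference was -8.11 ± 0.97 (edgeR adjusted p = 0.00225). IVF blastocysts were thus nearest to in vivo hatched blastocysts in BMP2 and IVF hatched ones nearest to in vivo blastocysts.

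SERPINH1, a collagen chaperone, overlapped between the IVF stages (-0.16 ± 0.43) and rose in vivo by 3.72. GATA4 and SOX17, transcription factors of hypoblast, had IVF values of 0.16 ± 0.32 and -0.46 ± 0.61 and in vivo rises of 2.75 and 4.08. Their differences passed the test, but GATA4 lost its call without in vivo blastocyst library 1 or in vivo hatched library 2 (adjusted p of up to 0.0662). SOX17 lost its call without either of those or without IVF blastocyst library 1, IVF blastocyst library 3 or IVF hatched library 2 (up to 0.0991). GATA6, an earlier hypoblast factor, had 145, 186 and 164 CPM in IVF blastocysts and 151, 114 and 176 CPM in IVF hatched ones, and PDGFRA, a hypoblast receptor, had 1.87 to 3.46 and 3.73 to 5.06 CPM. In vivo GATA6 had a fitted change of 0.19 that did not pass. PDGFRA rose in vivo by 3.13, with 20.2 and 207 CPM in the hatched libraries. Neither difference between origins passed the test (-0.36 ± 0.42 for GATA6 and -2.38 ± 0.94 for PDGFRA).

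**Figure D5:**
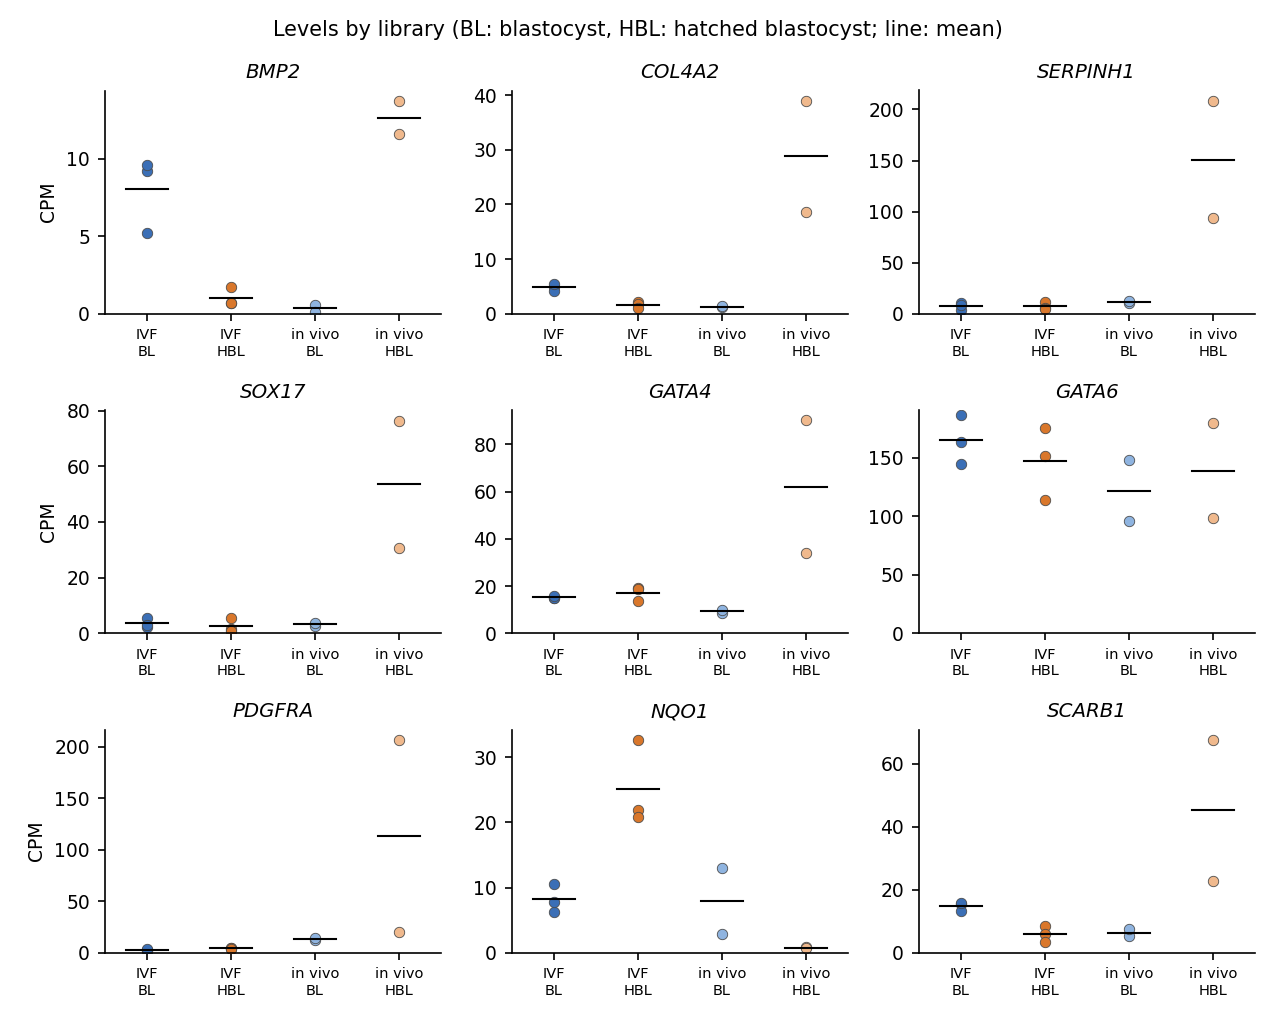
CPM by library of hypoblast genes, NQO1 and SCARB1 in IVF blastocysts, IVF hatched blastocysts, in vivo blastocysts and in vivo hatched blastocysts (n = 3, 3, 2 and 2; lines are means; each panel has its own axis). In the panels of COL4A2, SERPINH1, SOX17 and GATA4 both in vivo hatched libraries lie above all others, and in that of NQO1 the 3 IVF hatched libraries do.

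The medians of the antioxidant and citrate cycle lists were slightly above 0 in culture and below 0 in vivo. Of 34 tested antioxidant and glutathione genes, 22 were above 0 in culture with a median of 0.27 (over all genes 50.1% were below 0). Of the 34, 0 passed the test in culture and 8 were higher in every hatched library (5.12% of all genes). In vivo 13 of them fell and 2 rose (7.39% and 6.96% of all genes), and for 8 the change in culture was above that in vivo (2.79% of all genes). NQO1, a quinone reductase under NRF2, had 6.30, 7.73 and 10.6 CPM in IVF blastocysts and 32.6, 21.9 and 20.8 CPM in IVF hatched ones (1.62 ± 0.46, edgeR adjusted p = 0.973). In vivo it fell by 3.32, from 2.93 and 13.03 to 0.822 and 0.773 CPM, and the difference was 4.93 ± 0.78 (edgeR adjusted p = 0.00787).

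SRXN1, which repairs peroxiredoxins, had 156, 119 and 131 CPM in IVF blastocysts and 215, 236 and 237 CPM in IVF hatched ones, and fell in vivo (difference 2.28 ± 0.40). CAT, the catalase, had 430, 539 and 482 CPM against 690, 917 and 713 CPM, and TXNRD1, thioredoxin reductase, 407, 410 and 475 against 559, 559 and 745 CPM. All 3 were higher in each IVF hatched library without passing the test. In vivo CAT (0.59) and TXNRD1 (0.41) had fitted values above 0 that did not pass, with differences between origins of 0.08 ± 0.30 and 0.12 ± 0.33. FTH1, the ferritin heavy chain, and MGST1, a glutathione transferase, overlapped in culture (0.29 ± 0.22 and -0.25 ± 0.18) and fell in vivo by 2.49 and 3.10.

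Of 22 citrate cycle enzymes, 19 were above 0 in culture with a median of 0.23 (over all genes 50.1% were below 0). Of the 22, 0 passed the test in culture and 7 were higher in every hatched library (5.12% of all genes). In vivo 5 of them fell (7.39% of all genes), with a median of -0.36, and for 5 the change in culture was above that in vivo (2.79% of all genes). SDHA, a subunit of succinate dehydrogenase, had 1165, 1173 and 1189 CPM in IVF blastocysts and 1422, 1872 and 1448 CPM in IVF hatched ones (0.43 ± 0.17). IDH3B, a subunit of isocitrate dehydrogenase, had 0.49 ± 0.18 in culture and fell by 0.85 in vivo. Its difference of 1.35 ± 0.29 (edgeR adjusted p = 0.0273) lost its call without in vivo blastocyst library 1, in vivo hatched library 2, any of IVF blastocyst libraries 1, 2 and 3, or IVF hatched library 2 (adjusted p of up to 0.0785).

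Ribosomal protein genes lay mostly on the lower side of 0 by a small margin. Of 84 tested, 81 had a fitted change below 0 (50.1% of all genes), with a median of -0.30 and 0 calls, and the stages were apart for 26 lower and 1 higher (5.60% and 5.12% of all genes). Their share of all counts was 1.65% to 1.81% in blastocysts and 1.27% to 1.66% in hatched blastocysts, so that the ranges just met, and without hatched library 2 the median was -0.21. RPS7 had 215, 197 and 228 CPM against 175, 145 and 137 CPM (-0.49 ± 0.19), and RPS24 136, 107 and 131 against 91.3, 81.4 and 97.3 CPM (-0.47 ± 0.19). Both encode small subunit proteins. The median in vivo was 0.15. Of 13 messages of the mitochondrial genome, 11 were below 0 (50.1% of all genes), with a median of -0.43 and 0 calls. The stages were apart for 0 of them. They made up 0.883% to 1.07% of counts in blastocysts and 0.606% to 0.982% in hatched blastocysts, ranges that overlapped.

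Oocyte and zona pellucida genes, messages stored in the egg, were near the limit of detection. Of 12 tested, 10 had a fitted change below 0 (50.1% of all genes), with a median of -2.79 and 0 calls. The stages were apart for 4 lower and 0 higher (5.60% and 5.12% of all genes). BMP15, an oocyte growth factor, had 3.21, 0.285 and 0.952 CPM in blastocysts and 0, 0.0829 and 0 CPM in hatched blastocysts. Blastocyst library 1 held most of that signal, and the hatched libraries were at or under the 3-count floor of 0.0812 to 0.0852 CPM, so no fold is given.

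Genes of hatching itself and of cavity formation had no call in culture. Of 28 tested hatching proteases and inhibitors, 16 were below 0 (50.1% of all genes), with a median of -0.08. TIMP2, an inhibitor of matrix metalloproteinases, had 2.38, 3.37 and 2.31 CPM in blastocysts and 3.86, 6.74 and 7.77 CPM in hatched blastocysts (1.19 ± 0.44). PLAU, the urokinase type plasminogen activator, had 69.9, 16.9 and 25.1 CPM against 76.8, 45.5 and 33.4 CPM and overlapped.

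The lysosomal protease CTSK had 61.4, 39.1 and 46.8 CPM in blastocysts and 13.4, 28.2 and 27.7 CPM in hatched blastocysts (-1.09 ± 0.34), while CTSB (-0.13 ± 0.22) and CTSL (0.31 ± 0.37) overlapped. AQP3, a water and glycerol channel, had 327, 504 and 353 CPM against 350, 224 and 221 CPM (-0.57 ± 0.24). UPK3A, a membrane protein of the urothelium, had 4.02, 9.77 and 12.1 CPM against 0.966, 0.746 and 0.568 CPM (-3.50 ± 0.55, edgeR adjusted p = 0.0814) and was chosen after its values were seen.

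Fitted changes that did not pass were also large on both sides, and the 5 largest on each are given for genes with a symbol of their own, stages apart and 10 CPM or more on average in the higher stage. SLC10A1, a bile acid transporter, had 27.0, 53.6 and 47.1 CPM in blastocysts and 301, 238 and 93.2 CPM in hatched blastocysts (2.31 ± 0.42, edgeR adjusted p = 0.184). In vivo it rose by 3.70. STAR, which moves cholesterol into mitochondria for steroid synthesis, had 12.3, 37.6 and 4.41 CPM against 153, 54.0 and 48.7 CPM (2.24 ± 0.76, edgeR adjusted p = 1.00). All hatched libraries of both genes were above all blastocyst libraries.

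STAR also stands on a marker list for cumulus and granulosa cells, the cells around the egg, whose sum over 11 genes was 4.71 to 38.4 CPM in blastocysts and 48.7 to 155 CPM in hatched blastocysts. STAR made up nearly all of that sum, and 8 to 10 of the 11 genes had 0 counts in each IVF library. The part of such cells in the value of STAR was not tested.

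SLC2A5, a fructose transporter, had 15.5, 9.46 and 5.93 CPM against 41.1, 36.4 and 24.2 CPM (1.72 ± 0.46), and rose in vivo by 3.88. FAM35A had 9.44, 5.16 and 10.7 CPM against 23.3, 26.2 and 30.1 CPM (1.65 ± 0.34). It rose more in vivo, and the difference of -2.17 ± 0.52 (edgeR adjusted p = 0.0400) lost its call without in vivo blastocyst 2, in vivo hatched 2, IVF blastocyst 1 or 3, or IVF hatched 1, 2 or 3 (adjusted p of up to 0.118).

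On the lower side, GABRP, a GABA receptor subunit, had 20.1, 5.65 and 30.0 CPM in blastocysts and 2.59, 0.387 and 3.06 CPM in hatched blastocysts (-3.21 ± 1.03). NTRK3, a neurotrophin receptor, had 95.7, 17.6 and 49.0 CPM against 2.61, 9.89 and 10.01 CPM (-2.85 ± 0.75). CYP17A1, a steroid hydroxylase, had 10.05, 31.9 and 3.40 CPM against 2.98, 2.43 and 2.49 CPM (-2.52 ± 1.01). For all 3 the blastocyst libraries differed several-fold among themselves. NMT2, which attaches myristate to proteins, had 2.61, 18.8 and 26.2 CPM against 0.824, 2.46 and 2.06 CPM (-3.15 ± 0.93). CAVIN2, a coat protein of caveolae, had 21.3, 3.32 and 12.9 CPM against 0.341, 2.68 and 2.30 CPM (-2.82 ± 0.84). Neither passed, their blastocyst libraries also differed several-fold, and the lowest of these lay close to the highest hatched library. LDHB is a symbol that 2 genes of the table share, so it stands outside those 5 and its values are uncertain. The gene of that symbol on chromosome 2 (100621540) had 38.2, 55.2 and 55.9 CPM against 1.70, 12.5 and 4.30 CPM (-3.01 ± 0.81, edgeR adjusted p = 0.917), with stages apart. The far more abundant gene of that symbol on chromosome 5 (102161427) had 1844, 1097 and 1553 CPM against 762, 1271 and 1097 CPM. Its fitted change was -0.52 ± 0.25, and its stages overlapped.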

How the data were processed

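Messenger RNA of pooled pig embryos was sequenced in 13 libraries, and the authors deposited 1 gene table on Sscrofa11.1 with values for each. Its whole-number read counts were deposited without normalisation, and its FPKM values, per the file headers, are scaled by the authors to gene length and library size. Tools in the submitters' processing notes are RSEM, StringTie 1.3.1, HISAT2, Bowtie2 and fastp 0.18.0. The counting step, its strand setting and its treatment of reads shared by similar genes are not given in the sources used here.

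Of 28232 genes, 28208 matched a RefSeq table of Sscrofa11.1, which gave positions. The 24 others, mitochondrial rRNA and tRNA genes, held 0.0171% to 0.0448% of counts in the 6 IVF libraries compared, and 488 genes share their symbol with another. Of 39 value columns for libraries, 20 were not used. A count column of the in vivo hatched libraries carries no replicate number.

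Counts of 10 libraries (IVF and in vivo blastocysts and hatched blastocysts) were fitted by group in edgeR 4.0.16 and tested by quasi-likelihood (R 4.3.3, TMM, the edgeR filter on low counts, Benjamini-Hochberg adjustment over 15528 genes, calls at an adjusted p under 0.05). The difference between origins was an interaction contrast of that fit. A value after ± is a standard error from that fit of 10 libraries (n = 3 for each IVF group, 2 for each in vivo group). It is the absolute log2 fold change divided by the square root of its quasi-likelihood F. CPM use TMM library sizes. At these depths 3 counts correspond to 0.0759 to 0.0852 CPM in the IVF libraries on that scale. Each library was counted once. No 2 replicates of an IVF stage agreed within sampling noise (the lowest chi-square was 72.5 for each degree of freedom). This cannot tell separate pools from separate preparations of the same pool. The in vivo replicates were not compared in this way. The script was tested on simulated data.

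Alternatives were the 6 IVF libraries alone, a replicate block, all 13 libraries, DESeq2 1.42.0 and its size factors, no filter, robust estimation, and each library left out (for the IVF change, omission of in vivo libraries was added after seeing the data). The members, 44 gene lists and rules were chosen with earlier results of these data known. Named genes are all called genes with a symbol that no other gene shares and at least 5 CPM, the member of each list with the smallest p, a set of lineage and stress genes, and on each side the 5 largest uncalled changes of such genes with stages apart and at least 10 CPM. Some are left to counts, some are not reported here, and other named genes, most sterol genes and the genes named for a difference between origins among them, were chosen after their values were seen.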

Additional observations from a re-analysis of the deposited data

Results flagged for a closer look

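The results here are genes named in the text whose log2 change across hatching in culture differed from that in vivo by edgeR's test of the difference (adjusted p under 0.05 over 15528 genes). Of 20 such genes, 14 kept the call without each single library, 6 lost it without at least 1 (ACSS2, FAM35A, GATA4, IDH3B, SC5D and SOX17), and all 20 lost it when 13 libraries were fitted together.

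The change in culture was below that in vivo for BMP2 (-8.11), COL4A2 (-5.99), SOX17 (-4.54), SCARB1 (-4.14), SERPINH1 (-3.88) and JUN (-3.34). It was also below for ACSS2 (-2.82), EREG (-2.71), GATA4 (-2.58), FOS (-2.19), FAM35A (-2.17) and FADS1 (-2.07). It was above that in vivo for NQO1 (4.93), MGST1 (2.85), FTH1 (2.78), DPPA5 (2.42), SRXN1 (2.28), PHLDA3 (1.93), SC5D (1.403) and IDH3B (1.35).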

How the results depend on the processing

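The counts of genes lower and higher in IVF hatched blastocysts (7 and 0) were the same with DESeq2 size factors or robust estimation and became 6 and 0 with the 6 IVF libraries alone. They were 108 and 54 with no filter on low counts, 45 and 13 by DESeq2, and 0 and 0 with 13 libraries, and the cause was not tested. Sterol list members called were then 19, 17 and 0. With the replicate number as a block, the 6 IVF libraries gave 0 lower and 0 higher (516 at an unadjusted p under 0.05) and 0 list members, and the 10 libraries gave 4 lower, all 4 in the list. Deviations of same-numbered libraries from their stage means had correlations of -0.161, -0.343 and -0.290. Those of blastocyst 1 with hatched 2, 2 with 3 and 3 with 1 had 0.304, 0.370 and 0.154. The remaining pairs, blastocyst 1 with hatched 3, 2 with 1 and 3 with 2, had -0.161, -0.00785 and 0.130. With 3 libraries in each stage these values depend on each other, so they cannot decide whether the libraries were paired. Leaving out each library in turn gave 4 to 7 lower, 0 to 1 higher and 4 to 7 list members. Without IVF blastocyst library 1 or 3 or hatched library 3 there were 4 lower, and without hatched library 3 also 1 higher.

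The list median stayed between -1.40 and -1.12, with 25 to 29 members below 0, under each alternative run. The counts of differences between origins (433 above, 299 below) were 1 and 0 with 13 libraries, 947 and 908 with no filter, 1041 and 947 by DESeq2, and 149 and 84 with the block. Over single omissions they were 195 to 527 and 127 to 506.

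Uncalled IVF values that changed sign with 1 library left out, with their range over single omissions, were CTSB (-0.32 to 0.077, without blastocyst library 2), GATA3 (-0.10 to 0.35, without blastocyst library 1 or hatched library 1), INSIG2 (-0.039 to 0.22, blastocyst library 1), GATA2 (-0.20 to 0.13, blastocyst library 2 or hatched library 2), SREBF1 (-0.48 to 0.47, the same libraries) and SERPINH1 (-0.64 to 0.13, blastocyst library 1 or hatched library 2 or 3).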

Other observations

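Immediate early genes are transcribed within minutes of a stimulus. In IVF hatched blastocysts 17 of 21 tested members were above 0 (over all genes 50.1% were below 0), with a median of 0.24 and 0 calls. FOS had 14.1, 14.7 and 20.2 CPM in IVF blastocysts and 24.4, 34.4 and 27.3 CPM in IVF hatched ones (0.81 ± 0.26, edgeR adjusted p = 1.00), with no overlap. In vivo 7 of the 21 rose and 1 fell (6.96% and 7.39% of all genes), and FOS rose from 22.0 and 42.2 to 274 and 241 CPM. JUN, its partner in AP-1, had 141, 105 and 136 CPM against 141, 187 and 128 CPM in culture and rose in vivo from 23.0 and 37.3 to 511 and 215 CPM. EGR1 had 4.38, 2.85 and 5.31 CPM against 3.64, 15.1 and 5.90 CPM, with hatched library 2 above the rest. EREG, an EGF-family ligand, had 22.7, 43.9 and 30.4 CPM against 37.3, 40.3 and 35.7 CPM in culture and rose in vivo by 2.94.

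Genes of p53 targets and apoptosis had a median of 0.00 in culture and -0.75 in vivo, where 9 of 33 fell and 1 rose (7.39% and 6.96% of all genes). PHLDA3, a p53 target, had 1148, 1262 and 1130 CPM in IVF blastocysts and 1340, 2124 and 1601 CPM in IVF hatched ones (0.52 ± 0.23) and fell in vivo by 1.42. In the list of mitosis genes, BUB1, a checkpoint kinase, had 106, 89.3 and 156 CPM against 161, 196 and 219 CPM (edgeR adjusted p = 1.00). Its stages were apart, with no call. HSD17B4, a peroxisomal enzyme of fatty acid oxidation, had 114, 123 and 142 CPM against 237, 209 and 223 CPM (0.82 ± 0.16, edgeR adjusted p = 0.346) and rose in vivo by 1.63.

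In 20 of 24 tested annexin and S100 genes the IVF value was below 0 (50.1% of all genes), with a median of -0.33 (-0.34 in vivo) and 0 calls. S100A10 had 258, 283 and 272 CPM in blastocysts and 237, 118 and 145 CPM in hatched blastocysts. KRT18, a keratin of the trophectoderm, had 2957, 3333 and 3265 CPM against 2872, 2275 and 1930 CPM (-0.43 ± 0.21). PSAT1, an enzyme of serine synthesis, had 9.29, 4.95 and 110 CPM against 1.59, 6.30 and 0 CPM, and its fitted value of -3.97 ± 1.29 was -1.43 at the least when 1 library was left out.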
